A study of Mus musculus with 6 samples.

Results

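Motile cilia genes were taken as the protein-coding genes of GENCODE vM21 whose symbols begin with Cfap, Dnah, Dnai, Dnaaf, Rsph or Tekt, together with Foxj1, Dynlrb2 and Fam183b. The rule used names only, and it found 68 of 21951 protein-coding genes. Their transcripts were measured by poly-A RNA sequencing of lumbar spinal cord, its ventral side only, from C57BL/6 mice aged 5 weeks. The 6 libraries came from 3 wild-type (WT) samples and 3 samples of the Gde2KO genotype, with no other allele or treatment in the labels. Gde2KO refers to loss of GDE2, the membrane enzyme encoded by Gdpd5, and the sources used here do not say how the allele was made or whether cells of any type were spared. The labels give no sex and do not state that each sample was one animal, so p-values measure only the spread between these samples.

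Motile cilia beat, and in the spinal cord they stand on the ependymal cells that line the central canal. Their core, the axoneme, is a ring of paired microtubules around a central pair. Outer and inner dynein arms drive the sliding of the doublets, radial spokes connect the ring to the central pair, and tektins and other proteins sit inside the doublet walls. Dynein arms are put together in the cytoplasm by assembly factors, and the transcription factors FOXJ1 and RFX switch many of these genes on. Several members act elsewhere too: Cfap20 and Cfap36 are not restricted to motile cilia, and Tekt5 is known from sperm flagella.

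Each library held 31899 to 33791 assembled transcripts, at relative depths of 0.91 to 1.14, and 1 FPKM (fragments per kilobase of assembled transcript, scaled to library size) stood for a read depth of 4.71 to 5.89 per base. Gdpd5, the targeted gene, read 1.25, 1.20 and 0.952 FPKM in the Gde2KO libraries, where WT had 5.41, 6.58 and 5.99, a fold of 0.202 (95% interval 0.162 to 0.253; limma adjusted p = 0.00530). Gde2KO replicate 3 stood apart in its assembly, with an annotated intron chain in 56.21% of its multi-exon transcripts against 49.25% to 49.79% elsewhere. Gde2KO replicate 1 alone held the Y-linked gene Ddx3y, at 21.8 FPKM, and alone had Xist listed at 0. Its summed meningeal and connective tissue markers came to 46.9 FPKM, below the range of 87.2 to 120 over the remaining 5.

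The motile cilia genes formed a mostly low set with a few high members. A level here is the FPKM summed at each counted base, averaged over the bases of the gene that were its own and assembled in at least 3 libraries. Such bases existed for 54 of the 68 members. Of these, 22 had a mean of at least 1 FPKM and were tested between genotypes, 6 of them at 5 FPKM or more, while the other 32 lay lower and 28 of those passed a minimum of 0.3 FPKM. None of the 22 tested members was listed at 0 in any library, whereas 9 members of the lower set were listed at 0 in at least 1, which can be a failed assembly. The remaining 14 members had no counted bases, and 9 of those had no assembled transcript in any library. Those 9 were Cfap58, Cfap97d1, Cfap221, Dnaaf1, Rsph3a, Rsph3b, Rsph6a, Rsph14 and Tekt3. Just above the limit of 1 FPKM were Cfap45 and Cfap97d2, with means of 1.04 and 1.01, and just below it were Rsph4a and Cfap69, at 0.974 and 0.929. Cfap45, an inner doublet protein, was at 1.42, 0.891 and 0.666 FPKM in WT and 1.25, 1.09 and 0.918 in Gde2KO. Cfap69, of the central pair, was at 1.04, 0.681 and 1.10 in WT and 1.03, 0.766 and 0.958 in Gde2KO. The libraries of the genotypes overlapped for both.

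**Figure D1:**
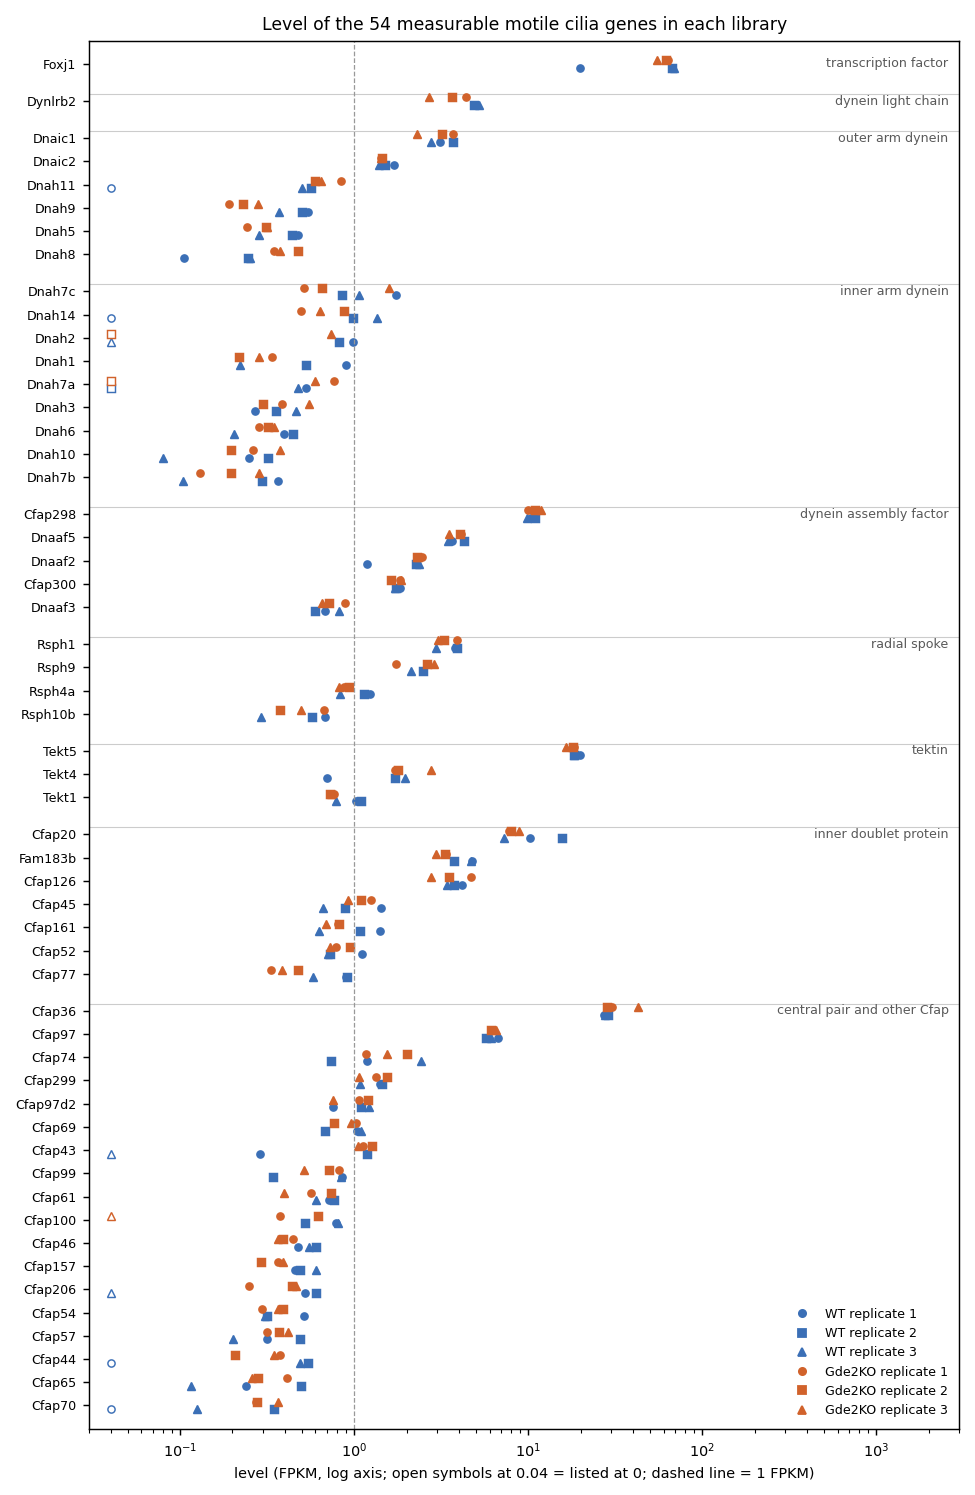
Level in FPKM (log axis) of the 54 motile cilia genes with counted bases, grouped by role, with 1 point per library and open symbols for libraries in which the gene was listed at 0. The dashed line marks 1 FPKM, and among the 13 dynein heavy chains only Dnah7c had a mean above it.

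The ependymal setting was checked with genes outside the member list. Tmem212, a membrane protein gene used as an ependymal marker, was at 1.87, 1.99 and 1.37 FPKM in WT and 1.84, 1.30 and 1.23 in Gde2KO. Ccdc153, another gene used to mark ependymal cells, stood at 6.63, 3.29 and 4.31 in WT and 2.74, 3.35 and 3.94 in Gde2KO. Both were thus assembled in every library, and the genotypes overlapped for both. Their fitted log2 differences, Gde2KO minus WT, ran over 19 settings from -0.42 to -0.15 for Tmem212 and from -0.68 to -0.18 for Ccdc153. The lowest limma adjusted p was 0.808 for Tmem212 and 0.789 for Ccdc153. The wider ependymal list is given below. Choroid plexus, which also bears cilia, left little trace: 0 of 8 markers reached a mean of 1 FPKM, their summed level ran from 1.61 to 2.38 FPKM, and Kcnj13, Otx2 and Aqp1 had no counted bases. Pkd2l1, the channel gene of the neurons that contact the cerebrospinal fluid around the canal, was at 3.17, 4.58 and 4.86 in WT and 3.95, 3.60 and 4.15 in Gde2KO. In bulk tissue fewer cells of a type and less RNA per cell cannot be told apart, and which cells gave the members' RNA was not tested.

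Foxj1, the regulator of the motile cilia programme, had the highest level in the set, but no library held a transcript of Foxj1 alone. It occupies bases 116330704 to 116335399 of chromosome 11, minus strand (GRCm38), 953 bases downstream of Rnf157, a ubiquitin ligase gene of the same strand. Every one of the 2 or 3 assembled transcripts over Foxj1 in each library ran through all 953 bases of the gap and carried 15 to 20 exons of Rnf157. All of the Foxj1 level, 100%, therefore came from transcripts that overlapped Rnf157 more. In WT the level was 19.8 FPKM in replicate 1, 66.8 in replicate 2 and 68.4 in replicate 3, and the Gde2KO libraries read 63.6, 61.9 and 54.9. Apart from WT replicate 1 these values lay beside those of Rnf157 itself, which were 79.8, 63.2 and 65.3 in WT and 63.4, 63.1 and 54.6 in Gde2KO. In WT replicate 1 the more abundant transcript, at 67.1 FPKM in the authors' assembly, ended 680 bases past the annotated start of Foxj1, in its first intron. It held 206 bases inside the gene, and the other transcript, at 15.8 FPKM, held 2623. How much of the level belongs to Foxj1 cannot be read from these assemblies. The fitted log2 difference of 0.42 (Gde2KO minus WT; 95% interval of the fold 0.554 to 3.22; limma adjusted p = 0.884) turned to -0.17 without WT replicate 1.

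**Figure D2:**
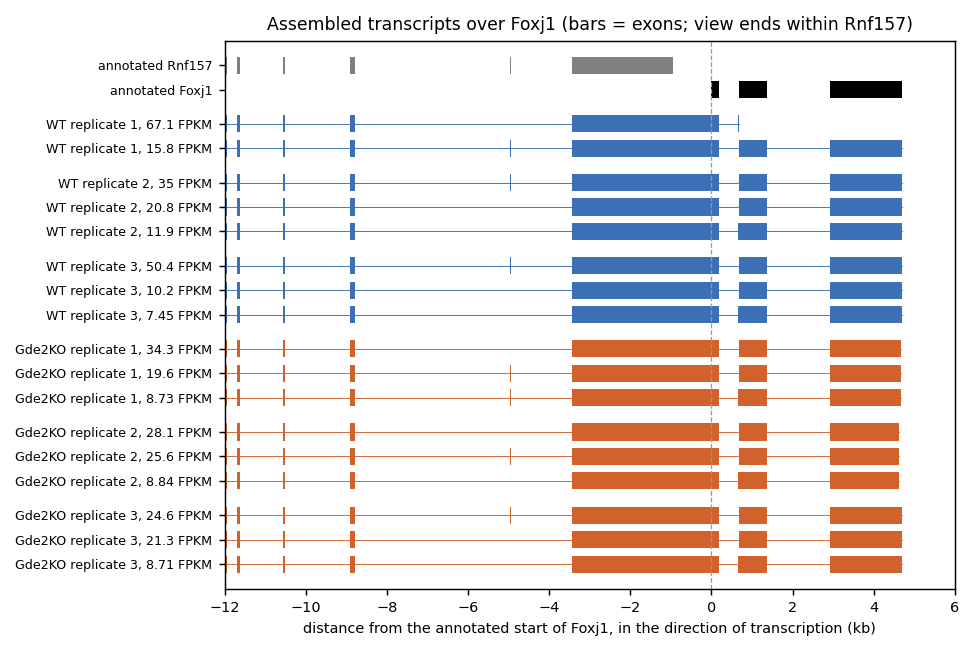
Exons (bars) of every assembled transcript over Foxj1, by distance in kb from its annotated start in the direction of transcription, with the deposited FPKM of each transcript and the annotated Rnf157 and Foxj1 exons on top. All 17 transcripts continued from Rnf157 across the gap, and the transcript of 67.1 FPKM in WT replicate 1 stopped in the first intron of Foxj1.

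Dynein arm genes ranged from a few FPKM for the small subunits to well under 1 for nearly all heavy chains. Dynlrb2, a dynein light chain of the roadblock family, was at 5.03, 4.86 and 5.22 FPKM in WT and 4.42, 3.63 and 2.70 in Gde2KO. Dnaic1, an intermediate chain of the outer arm, reached 3.10, 3.69 and 2.75 in WT and 3.69, 3.18 and 2.29 in Gde2KO. Its partner Dnaic2 was lower and even, at 1.69, 1.50 and 1.39 in WT and 1.43, 1.45 and 1.43 in Gde2KO. The genotypes overlapped for both intermediate chains and not for Dynlrb2. Among outer arm heavy chains, the motor subunits, Dnah11 had the highest mean: it was listed at 0 in WT replicate 1 and stood at 0.562 and 0.501 in the other WT libraries and 0.842, 0.599 and 0.642 in Gde2KO.

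Of the 9 inner arm heavy chains with counted bases, 3 were listed at 0 in at least 1 library, and their means ran from 0.230 to 1.07 FPKM. Dnah7c was at 1.75, 0.851 and 1.07 FPKM in WT and 0.517, 0.650 and 1.59 in Gde2KO, and its close copies Dnah7a and Dnah7b make the split of reads among them uncertain. Dnah14 was listed at 0 in WT replicate 1, was at 0.989 and 1.35 in the other WT libraries, and stood at 0.496, 0.875 and 0.633 in Gde2KO. Dnah2 was listed at 0 in 3 libraries, WT replicate 3 and Gde2KO replicates 1 and 2, against 0.981 and 0.816 in WT and 0.738 in Gde2KO elsewhere. No genotype pattern is readable from zeros placed in both groups.

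Heavy chain values rest on fragments of very long genes. The 13 heavy chains with counted bases had 12603 to 26820 exonic bases of their own, of which 2.48% (Dnah7c) to 39.5% (Dnah9) could be counted, and their means ran from 0.230 to 1.07 FPKM. Of the 70 annotated introns of Dnah3, an inner arm chain, none was assembled in any library. Dnah5, an outer arm chain that is often mutated in human ciliary disease, had 32, 33 and 15 of 78 introns assembled in WT and 21, 32 and 39 in Gde2KO. By contrast Tekt5 was assembled as 1 transcript with all 6 introns in every library. Some tested members other than heavy chains rested on fragments too. Of the own exonic bases, 24.7% were counted for Cfap74 and 12.5% for Cfap97d2, and Dnaic1 had 7 to 18 of its 21 introns assembled.

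**Figure D3:**
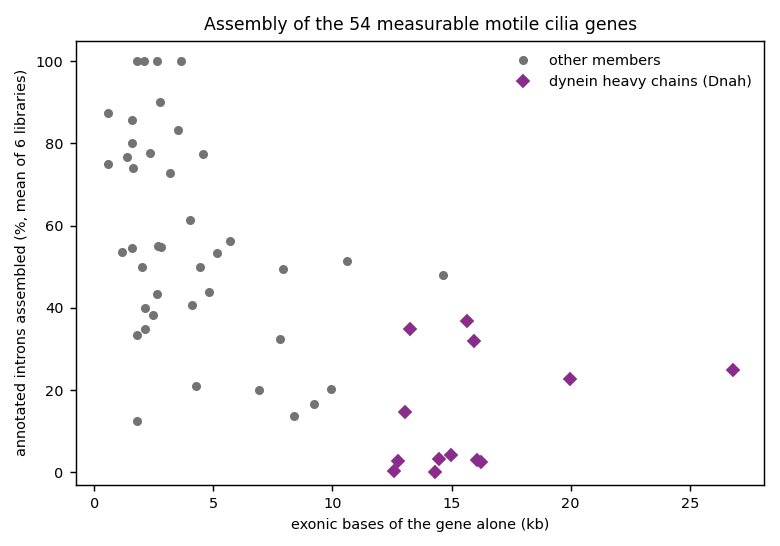
Share of annotated introns assembled (percent, mean of 6 libraries) against the exonic bases of the gene alone (kb) for the 54 motile cilia genes with counted bases, 1 point per gene. The 13 dynein heavy chains (diamonds), from 12603 bases upwards, all lie in the lower part of the plot, with Dnah3 at 0.

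Assembly factors build dynein arms before they enter the cilium, and of those named here Cfap298 and Dnaaf5 were fairly even between libraries, Dnaaf2 less so. Cfap298 was at 10.4, 10.9 and 9.85 FPKM in WT and 9.98, 11.0 and 11.8 in Gde2KO. Dnaaf5 was at 3.66, 4.28 and 3.47 in WT and 4.12, 4.07 and 3.53 in Gde2KO. Dnaaf2, a factor that works with heat shock proteins, was at 1.18, 2.28 and 2.36 in WT and 2.47, 2.31 and 2.33 in Gde2KO. By this level, which counted 40.3% of the own exonic bases of Dnaaf2, WT replicate 1 was the low library and the other 5 lay close together. The longest Dnaaf2 transcript was instead highest in WT replicate 1, at 3.76 FPKM in the authors' assembly. It was at 3.53 in WT replicate 2 and at 2.32 to 2.43 elsewhere. That transcript was shorter in WT replicates 1 and 2, at 1445 and 1637 bases, against 2130 to 2176 elsewhere. These FPKM thus belong to models of unlike length. Dnaaf1 was among the members without any assembled transcript.

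Radial spoke genes with counted bases were mostly those of the spoke head. Rsph1, a spoke head protein, was at 3.80, 3.90 and 2.94 FPKM in WT and 3.92, 3.30 and 3.03 in Gde2KO. Rsph9, also of the head, was at 2.50, 2.49 and 2.11 in WT and 1.74, 2.63 and 2.86 in Gde2KO, so that one Gde2KO library was the lowest and another the highest of all. Rsph4a, a further head protein, was at 1.24, 1.14 and 0.834 in WT and 0.872, 0.934 and 0.819 in Gde2KO. Rsph6a, a paralog of Rsph4a known from sperm, had no transcript, nor did Rsph14, Rsph3a and Rsph3b.

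Among tektins, filament proteins of the doublet wall, Tekt5 stood well above the rest. It was at 19.9, 18.3 and 18.4 FPKM in WT and 18.3, 18.1 and 16.4 in Gde2KO. Tekt4 was at 0.695, 1.71 and 1.95 in WT and 1.71, 1.79 and 2.75 in Gde2KO. Tekt1, at 1.02, 1.10 and 0.785 in WT and 0.769, 0.727 and 0.733 in Gde2KO, was below 1 FPKM in every Gde2KO library. Tekt2 was assembled in 1 library only, at 0.723 FPKM in WT replicate 1, and Tekt3 in none.

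Inner doublet proteins line the inside of the microtubules. Cfap20, the highest of them, was at 10.3, 15.7 and 7.27 FPKM in WT and 7.80, 7.93 and 8.88 in Gde2KO, where the 3 libraries were closer to each other than the WT libraries were. Fam183b was at 4.78, 3.74 and 4.68 in WT and 3.35, 3.33 and 2.97 in Gde2KO, all below the lowest WT library. Cfap53, which also acts in left-right patterning, was assembled in WT replicate 1 alone, at 0.878 FPKM. Cfap126, which in mouse helps to place basal bodies, was at 4.14, 3.73 and 3.42 in WT and 4.67, 3.51 and 2.77 in Gde2KO, which span the WT range.

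The 22 central pair and other Cfap genes held the highest member without overlap with a neighbour, Cfap36. That gene, whose product binds the small GTPase ARL3, was at 27.4, 28.7 and 27.6 FPKM in WT and 30.3, 28.5 and 42.6 in Gde2KO. The library at 42.6 was Gde2KO replicate 3, and the other 5 differed by little. Cfap97 was at 6.70, 5.72 and 6.15 in WT and 6.13, 6.15 and 6.50 in Gde2KO. Cfap74, a central pair protein, was at 1.18, 0.739 and 2.41 in WT and 1.17, 2.02 and 1.55 in Gde2KO. Of the 22 genes, 18 had counted bases, 5 were tested, and the lowest mean with counted bases was 0.231 FPKM. Cfap97d2 was at 0.761, 1.09 and 1.21 in WT and 1.06, 1.20 and 0.755 in Gde2KO. Cfap73 was assembled at 0.405 FPKM in WT replicate 1 and 0.340 in Gde2KO replicate 3, outside counted bases.

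Between genotypes none of the 22 tested members passed the threshold. Limma on log2(FPKM + 0.1) with Benjamini-Hochberg adjustment over 12894 genes called 15 genes, 0.116% of those tested, and 0 members, with a lowest adjusted p of 0.882 among them. The fits with other settings also called 0. At an unadjusted limma p under 0.05 stood 2 members, both lower in Gde2KO, against 2.25% of all genes tested lower and 1.66% higher at that p. The members' differences were split, 12 lower and 10 higher, with a median of -0.00 on the log2 scale, and over all genes tested 6437 were lower and 6457 higher, with a median of 0.00. The split varied with the processing: 9 members were lower and 13 higher after quantile normalization, 14 lower and 8 higher without scaling, and 15 lower and 7 higher without WT replicate 3. With the plain sum of transcripts, by which 42 members were tested, 26 were lower and 16 higher. The members' folds ran from 0.704 for Dynlrb2 to 1.49 for Tekt4.

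The precision differed widely between members. Over all genes tested, a 95% interval reached a median of 0.28 to either side of the estimate on the log2 scale. Cfap97 had a fold of 1.01 (0.887 to 1.16) and Tekt5 of 0.934 (0.825 to 1.06). Tekt4, in contrast, had a fold of 1.49 (0.737 to 3.01) and Dnah7c of 0.724 (0.329 to 1.60). A p that misses the threshold does not show that such members were alike in both genotypes.

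**Figure D4:**
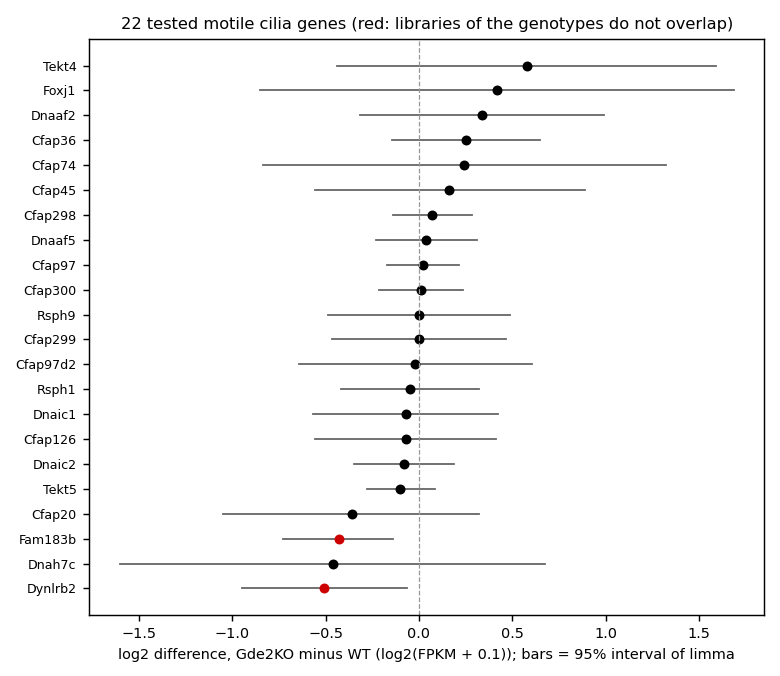
Log2 difference, Gde2KO minus WT, on the log2(FPKM + 0.1) scale for the 22 tested motile cilia genes, with 95% intervals from limma. Dynlrb2 and Fam183b (red), whose libraries do not overlap between genotypes, have intervals below 0, and all other intervals include 0.

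Dynlrb2 and Fam183b were the 2 members whose libraries did not overlap, both lower in Gde2KO, where 5.79% of all genes tested were lower without overlap. No tested member was higher without overlap, where 5.06% of all genes were. For Dynlrb2 the WT mean was 5.04 ± 0.180 FPKM (SD over 3 libraries) and the Gde2KO mean 3.58 ± 0.864, a fold of 0.704 (0.518 to 0.956; limma adjusted p = 0.882). For Fam183b the WT mean was 4.40 ± 0.578 and the Gde2KO mean 3.22 ± 0.219, a fold of 0.740 (0.604 to 0.907; limma adjusted p = 0.882). Gde2KO replicate 3 was the lowest library for both. Without it, the log2 difference was -0.32 in place of -0.51 for Dynlrb2 and -0.38 in place of -0.43 for Fam183b. Both genes are short, with 556 and 567 exonic bases of their own, and 94.4% and 88.5% of those were counted.

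Because they were the 2 members without overlap, the promoters of Dynlrb2 and Fam183b are shown, from RefSeq on GRCm38.p6 and read 5′ to 3′ on the gene's strand, with 250 bases before the start and 50 after it. Dynlrb2 is at chr8:116504765-116505064 on the plus strand and Fam183b at chr11:58801911-58802210 on the minus strand. The X-box that RFX factors bind is searched here as GTTNCC, 2 free bases and GGNAAC, and in a shorter form as GTTNCC, 2 free bases and GNAAC. Capitals mark matches to that shorter form and to GTTGCC, a single arm of the X-box.
Dynlrb2: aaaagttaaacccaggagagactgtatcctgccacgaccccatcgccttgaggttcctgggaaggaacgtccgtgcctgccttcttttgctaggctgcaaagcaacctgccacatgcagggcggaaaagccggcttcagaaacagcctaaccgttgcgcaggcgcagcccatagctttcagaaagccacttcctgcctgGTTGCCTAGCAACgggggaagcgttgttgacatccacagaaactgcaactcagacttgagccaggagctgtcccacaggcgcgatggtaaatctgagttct
Fam183b: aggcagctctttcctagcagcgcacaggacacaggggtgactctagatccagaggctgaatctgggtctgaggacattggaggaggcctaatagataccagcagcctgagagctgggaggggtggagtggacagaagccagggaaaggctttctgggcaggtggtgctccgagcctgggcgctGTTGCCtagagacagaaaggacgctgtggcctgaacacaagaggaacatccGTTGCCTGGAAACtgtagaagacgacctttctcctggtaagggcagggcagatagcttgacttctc

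Of the 68 members 55 had a window in the RefSeq promoter table, and motifs were searched in those windows on both strands. The shorter form (GTTNC, 2 free bases and GGNAAC when read on the other strand) was found in 7 of 55 members, 12.7%, and in 0.777% of the 27025 genes with a window. It was added after the sequence of Dynlrb2 had been seen, so that gene's match is part of the choice. Its matches are shown with 8 bases on each side in the direction in which the motif reads, the match in capitals, since the genes can then be compared letter by letter.
Dnah9: ttccaccaGTTTCCCAGCAACaacgacgc
Dnaic1: ctgacgcgGTTACCCAGCAACcgacaggc
Dnaic2: gtttaccaGTTGCCTAGCAACcctggccg
Dynlrb2: cctgcctgGTTGCCTAGCAACgggggaag
Fam183b: gaacatccGTTGCCTGGAAACtgtagaag
Rsph3b: ccccatcgGTTGCCGAGCAACccgaggtt
Tekt2: cggctctgGTTGCCGAGCAACcgccccct

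The 7 genes belong to several roles: the outer arm genes Dnah9, Dnaic1 and Dnaic2, the light chain Dynlrb2, the inner doublet gene Fam183b, the spoke gene Rsph3b and the tektin Tekt2. In Dynlrb2 the match begins 51 bases before the start and in Fam183b 16 bases before it. In Rsph3b it begins 9 bases after the start, and neither Rsph3b nor Tekt2 had counted bases in these libraries. Dnaic1 and Dnaic2, which carry a match too, had folds of 0.952 (0.675 to 1.34) and 0.947 (0.787 to 1.14), and their libraries overlapped. Of the 5 genes with a match and counted bases, Dynlrb2, Fam183b and Dnah9 were lower in Gde2KO without overlap. At a minimum of 0.3 FPKM, 6.03% of all genes were. Dynlrb2 and Fam183b had been picked for that lack of overlap, and the shorter form was added after Dynlrb2 was seen. The libraries of Dnah9 overlapped when only assembled bases were taken, as given below. The count thus follows in part from the choice of genes, and a link between motif and genotype was not tested.

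The other motifs varied in how often members held them. The single arm GTTGCC, which lies within many matches of the longer forms, was in 23 of 55 members, 41.8%, against 14.1% of all genes with a window, and the windows of Dnah7a, Dnah7b and Dnah7c, which are copies, count as 3 of the 23. The X-box in the longer spelling searched here, ending in GGNAAC, was in 1 member, Cfap298, 1.82%, against 0.529% of all. TGTTTAC, a core of sites that forkhead factors such as FOXJ1 bind, was in 4 members, 7.27%, against 4.05%. These 4 were Cfap20, Cfap43, Dnah17 and Tekt3. A match describes letters in a window and does not show binding.

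The members below 1 FPKM were looked at with a minimum of 0.3 FPKM, which let 50 members in. None was called by limma, where 0.120% of 15003 genes were. Of the 50, 26 were lower and 24 higher, with a median of -0.01, and over all 15003 genes 7553 were lower and 7450 higher. Without overlap between genotypes 7 members were lower, where 6.03% of all genes were, and 1 was higher, where 5.14% were. The 7 were Fam183b, Dynlrb2, Tekt1, Cfap77, Dnah9, Cfap157 and Cfap46, and the higher one was Dnah11, which was listed at 0 in WT replicate 1. Cfap77, Dnah9, Cfap157 and Cfap46 are named here because their values had been seen.

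Cfap77, an inner doublet protein, was at 0.893, 0.906 and 0.582 FPKM in WT and 0.331, 0.474 and 0.384 in Gde2KO. Its fold was 0.561 (0.362 to 0.869; limma adjusted p = 0.882). All 3 Gde2KO libraries were below the WT range. Dnah9, an outer arm heavy chain, was at 0.542, 0.505 and 0.370 in WT and 0.190, 0.229 and 0.279 in Gde2KO, a fold of 0.584 (0.336 to 1.02).

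The separation of some of these genes came with the share of their counted bases that was assembled. For Dnah9 that share was 95.5%, 84.7% and 78.1% in WT and 41.7%, 47.8% and 68.2% in Gde2KO. Taken over assembled bases alone, a measure chosen after the data had been seen, Dnah9 was at 0.568, 0.596 and 0.474 FPKM in WT and 0.456, 0.479 and 0.409 in Gde2KO, which overlap. Cfap77 by that measure was at 0.973, 1.12 and 0.654 in WT and 0.442, 0.605 and 0.529 in Gde2KO, still without overlap. Over assembled bases Tekt1 and Cfap157 overlapped, and Dynlrb2, Fam183b and Cfap46 did not. Dnah8, a heavy chain related to Dnah5 and known from sperm, went the other way. It lay just under the minimum of 0.3 FPKM, at 0.106, 0.247 and 0.252 in WT and 0.345, 0.478 and 0.374 in Gde2KO, with 33.5%, 52.3% and 38.0% of its counted bases assembled in WT and 63.6%, 87.0% and 96.8% in Gde2KO. Over assembled bases its libraries overlapped. The part of assembly in these differences was not tested beyond these values.

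**Figure D5:**
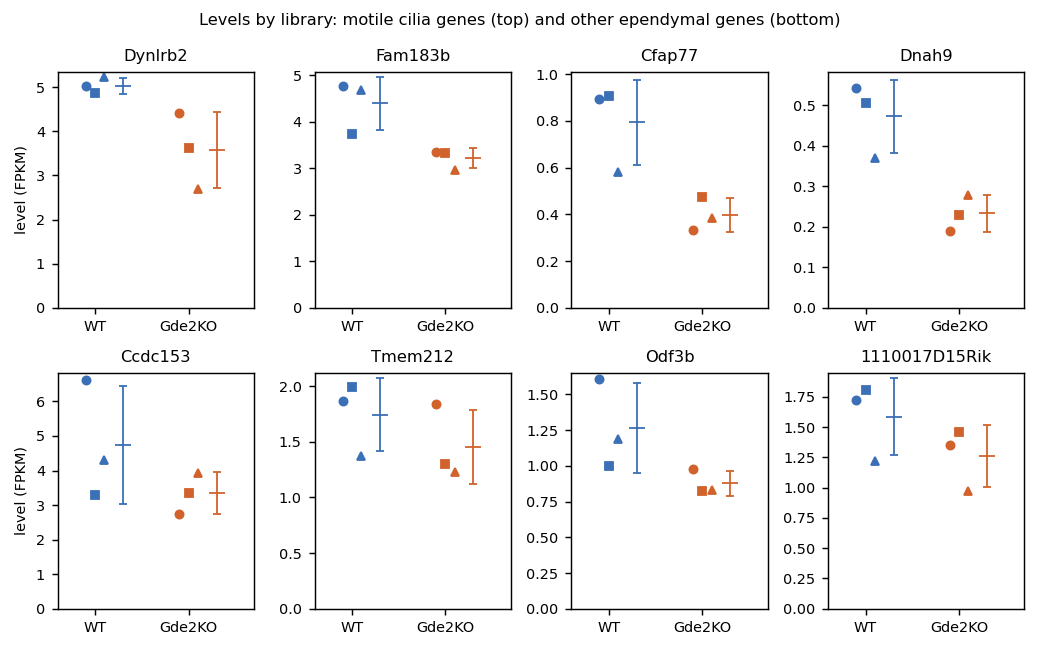
Level (FPKM, linear axis from 0) in each library, with circles, squares and triangles for replicates 1, 2 and 3 and bars for the mean and SD of each genotype, for 4 motile cilia genes (top) and 4 other ependymal genes (bottom). The genotypes do not overlap for the 4 genes on top, by the choice of those genes, nor for Odf3b, and they overlap for Ccdc153, Tmem212 and 1110017D15Rik.

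Other genes of the axoneme, from a list of 39 that the naming rule did not reach, had 16 tested members. Of those 12 were lower and 4 higher, with a median of -0.03 and 0 called. Gas8, a subunit of the complex that links doublets and regulates dynein, was at 8.38, 6.07 and 7.27 in WT and 7.21, 8.04 and 6.21 in Gde2KO. Spag6l, of the central pair, was at 1.24, 1.14 and 1.05 in WT and 0.955, 0.782 and 1.03 in Gde2KO, a fold of 0.823 without overlap and with a limma adjusted p of 0.882. Among all 12894 genes tested, 5.79% were lower without overlap. With the minimum of 0.3 FPKM 33 genes of this list were tested, 24 of them lower and 9 higher, with a median of -0.12 and 0 called, and 4 were lower without overlap. Over all 15003 genes, 7553 were lower and 6.03% were lower without overlap. For the 37 genes of this list with counted bases, the median log2 deviation from the WT mean was 0.09, -0.00 and -0.06 in WT. In Gde2KO that median was -0.16, -0.07 and -0.20, below the WT libraries, by little in replicate 2. Of the 37 genes, 7 were listed at 0 in some library. Lrrc23, at the top of this list, shares its levels with the neuronal gene Eno2, and 99.3% of its level came from transcripts of another gene. Its values are therefore not given, but the counts above include it. Without transcripts of a neighbouring gene, a level chosen after the data had been seen, 14 genes of the list were tested. Of those 11 were lower and 3 higher, with a median of -0.03 and 0 called.

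The programme that commits a cell to many cilia was hardly detected, and its broadly used genes were even. Mcidas, Gmnc, Myb, Deup1, Cdc20b, Trp73 and Foxn4 had no counted bases. Rfx3, a transcription factor of ciliary genes, was at 1.08, 1.17 and 0.899 FPKM in WT and 1.07, 1.06 and 1.05 in Gde2KO. Its relative Rfx2 was at 1.04, 1.10 and 1.08 in WT and 0.893, 1.05 and 0.840 in Gde2KO. Of the 16 genes 6 were tested, 4 lower and 2 higher, with folds from 0.872 to 1.04 and 0 called.

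Ependymal genes outside the member list were not called either. Of 17 genes 14 were tested, 12 lower and 2 higher in Gde2KO, with a median of -0.20 against 0.00 over all genes tested. The count was 9 of 13 and the median -0.05 without WT replicate 1, the library with the highest Ccdc153. The summed level of the 16 genes of this list with counted bases was not lower in Gde2KO. It was 352, 383 and 395 FPKM in WT and 379, 405 and 409 in Gde2KO, and the genotypes overlapped. A sum gives most weight to its highest genes, here Tppp3, Cd24a and Vim. The median log2 deviation of the same 16 genes from the WT mean was 0.15, -0.02 and -0.11 in WT. In Gde2KO that median was -0.24, -0.17 and -0.19, below every WT library. Odf3b, the one gene of this list without overlap, was at 1.61, 0.996 and 1.19 FPKM in WT and 0.979, 0.823 and 0.834 in Gde2KO, a fold of 0.727 (limma adjusted p = 0.882). Of all genes tested, 5.79% were lower without overlap. Rarres2, the gene of the secreted protein chemerin, was at 12.8, 11.1 and 10.3 in WT, was listed at 0 in Gde2KO replicates 1 and 2, and stood at 12.2 in Gde2KO replicate 3. It was called when that library was left out (limma adjusted p = 0.00100). In that fit both Gde2KO libraries were listed at 0, which can be a failed assembly. The meningeal and connective tissue list moved in the same direction, with 8 of 8 tested genes lower and a median of -0.37, or 6 lower of 8 and -0.02 without Gde2KO replicate 1. Its part in the ependymal values was not tested.

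Across libraries the members showed no split by genotype as a group. The median log2 deviation of the 22 tested members from the WT mean was 0.03, 0.06 and -0.06 in WT and 0.05, 0.02 and -0.06 in Gde2KO. For the 32 lower members it was 0.17, 0.16 and -0.24 in WT and -0.04, -0.14 and 0.02 in Gde2KO. Relative depth was 0.955, 1.03 and 0.91 in WT and 0.945, 1.02 and 1.14 in Gde2KO, so the lowest library for those 32 was the shallowest, while the highest was also below average depth and the deepest was near the WT mean.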

How the data were processed

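Poly-A RNA was sequenced in 6 libraries, 3 WT and 3 Gde2KO. Per the submitters' processing notes FastQC, TopHat2 2.1.1, Cufflinks 2.2.1, Cuffdiff 2.2.1 and the build mm10 were used; the FastQC version and the strandedness of the libraries are not given in the sources used here. The deposited files are one Cufflinks assembly per library, and their FPKM values were made by the authors, per the file headers and attributes.

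Transcripts of at least 200 exonic bases were matched to GENCODE vM21 by exon overlap on the same strand, and transcripts without a strand counted only where no opposite exon lay. The test took genes whose counted bases numbered 200 or more and whose mean, as deposited, reached 1 FPKM. After median-of-ratios scaling (factors 0.983 to 1.03), limma 3.58.1 (R 4.3.3) was run on log2(FPKM + 0.1) with intensity trend and robust moderation. Tests were two-sided, p-values were adjusted by Benjamini-Hochberg over all genes tested, and 0.05 was the threshold. Folds are on that scale, which understates changes of low genes. An exact permutation test of 3 against 3 cannot give a p under 0.1. FPKM files carry no counts, so no counting intervals are given. The fit was tested on simulated data.

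The members and lists were chosen with earlier results of these data known; of 171 list entries 1 matched no gene. Named members were Foxj1, Dynlrb2, Fam183b, the 12 highest tested members, up to 3 per role by level, the 8 smallest p and those nearest the level limit. Named list genes were the 3 highest and the 2 of smallest p of each list, and others (Tmem212, Ccdc153, Rfx3 and genes without counted bases among them) were chosen after their values were seen. Some genes that the rule names are left out here. Replicate numbers did not pair the libraries.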

Additional observations from a re-analysis of the deposited data

Results flagged for a closer look

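Signal for 2 heavy chain genes appeared outside the bases that entered the comparisons. Transcripts of Dnah17, an outer arm heavy chain known from sperm, summed to 0.375 FPKM in Gde2KO replicate 3 and were listed at 0 in the other 5 libraries. Transcripts of Dnah12, an inner arm heavy chain, summed to 0.903 FPKM in Gde2KO replicate 1 and were listed at 0 elsewhere. Each was seen in 1 library, so neither was compared between genotypes.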

How the results depend on the processing

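No motile cilia gene was called under any of the settings run. With all genes, 15 were called, against 8 with fragments per gene, 1 with a mean of at least 5 FPKM and 4 with values listed at 0 taken as missing, and 10 to 26 when 1 library was left out. With the replicate number as a block, 2 genes were called; the correlations of same-numbered libraries were 0.01, 0.04 and -0.07, so the numbers were not taken as pairs, and the block changed no call among members. The number of members tested was 42 with the plain sum of transcripts, 40 with fragments per gene, 50 with a minimum of 0.3 FPKM, 54 with none and 6 with a minimum of 5. The median of the tested members was -0.15 with the plain sum and ran from -0.10 to 0.05 with 1 library left out. Dnaaf2 turned to -0.63 with the plain sum and to -0.16 with fragments per gene, and Foxj1, which ran from -0.17 to 0.72 with 1 library left out, turned to -0.17 without WT replicate 1; the cause was not tested. Fam183b stayed between -0.55 and -0.25 and Dynlrb2 between -0.67 and -0.32 over 19 settings, with lowest adjusted p of 0.446 and 0.784. The level without transcripts of a neighbouring gene, chosen after seeing the data, left Foxj1 out and 21 members tested. The low and long members were assembled in part, the role of depth in this was not tested, and the reads behind single FPKM values are not known.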

Other observations

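Genes of intraflagellar transport and the BBSome, which build and supply primary as well as motile cilia, were higher and steadier than the motile cilia genes. All 31 of the list were tested, 19 higher and 12 lower in Gde2KO, with a median of 0.03, folds from 0.860 to 1.13 and 0 called. Without overlap between genotypes 2 of them were higher and 1 was lower, where 5.06% and 5.79% of all genes tested were. Kifap3, a subunit of the kinesin that carries cargo into cilia and along axons, was at 61.9, 61.0 and 61.4 FPKM in WT and 62.5, 63.0 and 43.4 in Gde2KO, where replicate 3 was the low library. Kif3a, a motor subunit of the same kinesin, was at 34.9, 31.3 and 38.4 in WT and 31.2, 30.4 and 28.5 in Gde2KO, without overlap and with a limma adjusted p of 0.882. Ift46, of the transport trains, was at 25.1, 31.8 and 24.8 in WT and 30.6, 28.1 and 25.3 in Gde2KO. Ttc21b, a retrograde transport subunit, was at 2.82, 2.49 and 2.64 in WT and 3.20, 3.03 and 2.81 in Gde2KO, a fold of 1.13 with an adjusted p of 0.882.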
